A study of Mus musculus with 18 samples.

Results

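The DNA replication machinery was examined as a set of 47 genes, from the proteins that license replication origins to the enzymes that supply nucleotides and the factors that rebuild chromatin behind the fork. All probes whose platform gene symbol was one of these 47 names were taken, 93 of the 45281 probes on the array, and 44 of the 47 genes could be tested among 10557 genes in all. Pola1, Pole2 and Slbp, which encode the catalytic subunit of DNA polymerase alpha, a subunit of DNA polymerase epsilon and the histone mRNA stem-loop binding protein, were not detected on all 3 arrays of any group and were not tested. The cells were CGR8, embryonic stem cells of the mouse strain 129P2/Ola, and RNA was hybridised to Illumina Mouse-6 version 2 BeadChips, which read 1 colour per array. Each of 3 lines carried a stably integrated siRNA that tetracycline (Tc) switches on. One line targeted EGFP, a gene that mouse cells lack, and the Ncl-1 and Ncl-2 lines targeted nucleolin with 2 different siRNAs. Every line was kept for 3 days without Tc (-Tc) or with it (+Tc), giving 6 groups of 3 arrays, so that the EGFP line shares the integration and the exposure to Tc with the nucleolin lines. The labels do not say whether a line is 1 clone or a pool. The comparison asks whether the replication genes respond when nucleolin, an abundant RNA-binding protein of the nucleolus, is depleted.

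Replication starts at origins that are licensed in G1, when the origin recognition complex, CDC6 and CDT1 load the ring of MCM proteins onto DNA. In S phase CDC45 and the GINS complex join the MCM ring to form the active helicase, the primase and polymerase alpha lay down primers, and polymerases delta and epsilon extend them while held on DNA by the sliding clamp PCNA, which the RFC complex loads. Embryonic stem cells divide fast, spend much of their cycle in S phase, and transcribe many of these genes at high levels under the E2F family of transcription factors.

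Signals are log2 values after background correction and quantile normalization, changes are the +Tc minus -Tc difference ± its standard error (SE) from a limma fit over all 18 arrays with the replicate number as a block, and p-values are two-sided and adjusted over the 10557 genes. A gene was said to rise or fall when its adjusted p was below 0.05. The mean intensity per array before normalization was 280 to 837 units, and the 6 arrays of replicate 3 were brighter (625 to 837) than the 12 of replicates 1 and 2 (280 to 596). Ncl itself fell by 4.66 ± 0.22 in the Ncl-1 line, to 3.94% of its -Tc signal, and by 4.36 ± 0.22 in the Ncl-2 line, to 4.88% (adjusted p = 2.31e-09 and 2.8e-09, and 2.01e-06 and 3.9e-06 without the block). In the EGFP line its change was 0.07 ± 0.22. In RNA from whole cultures, fewer cells of a kind and less RNA per cell cannot be told apart.

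With nucleolin depleted, replication genes fell and none rose in the fit with the replicate block. In the Ncl-1 line 13 of the 44 tested genes (29.5%) were lower with Tc, against 12.6% of all genes tested, and 0 were higher, against 14.3% of all genes. The Ncl-2 line had 18 lower (40.9%), against 13.1% of all genes, and 0 higher, against 13.9%. Cdc6, Cdt1, Mcm3, Mcm10, Cdc45, Gins2, Pola2, Pold3, Pcna, Tk1 and Chaf1b, 11 genes in all, fell under both siRNAs, against 8.06% of all genes. They are 84.6% of the genes lower in the Ncl-1 line and 61.1% of those lower in the Ncl-2 line. Gins3 and Lig1 passed in the Ncl-1 line alone, and Mcm2, Mcm5, Prim2, Pold2, Rfc1, Rfc3 and Rrm1 in the Ncl-2 line alone, and 24 genes passed in neither. Induction of the EGFP siRNA brought 0 of the 44 past the threshold in limma (0% of all genes). At an unadjusted p below 0.05 there were 0 members as well, beside 37 genes lower and 34 higher of all 10557. The EGFP change of no member exceeded 0.21 in size. The difference between the mean response of the nucleolin lines and the EGFP response, which uses the same arrays, was itself past the threshold for 7 members, Cdc6, Cdt1, Mcm2, Gins2, Pola2, Pcna and Tk1, all lower (15.9%, against 5.51% of all genes), and 0 were higher, against 8.87%.

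The median change of the 44 genes was -0.37 in the Ncl-1 line and -0.38 in the Ncl-2 line, beside -0.04 and -0.05 for all genes tested, and 0.01 in the EGFP line. Most members shared the sign, with 37 of 44 negative under both siRNAs. Most of these calls need the replicate block: without it, 1 member was lower in the Ncl-1 line (Pola2), 3 in the Ncl-2 line (Pola2, Gins2 and Tk1) and 1 in the difference from EGFP (Pola2), beside 2.73%, 3.15% and 0.758% of all genes. These are 2.27%, 6.82% and 2.27% of the members, so the Ncl-1 share was then not above that of all genes. With each array scaled to its median in place of quantile normalization, 5 members were lower in the Ncl-1 line, 5 in the Ncl-2 line and 3 in the difference from EGFP, beside 3.86%, 6.01% and 0.995% of all genes. Higher calls were 0 in each, beside 9.58%, 7.43% and 5.83%. The Pola2 and Pcna differences from EGFP were lost under that scaling (adjusted p = 0.0996 and 0.161). Under that scaling the lower share of all calls went from 46.9% to 28.7% in the Ncl-1 line, from 48.7% to 44.7% in the Ncl-2 line and from 38.3% to 14.6% in the difference from EGFP. The median of all genes became -0.14 in the EGFP line, -0.13 in the Ncl-2 line and 0.06 in the difference from EGFP under it. Relative to the median of all genes the members' median was -0.39 and -0.42 in the Ncl-1 and Ncl-2 lines, against -0.32 and -0.34 with quantile normalization. The count in the Ncl-2 line rested in part on single arrays, with 9 members lower when array 2 of Ncl-2 -Tc was left out (9.64% of all genes) and 7 when array 1 of Ncl-2 +Tc was left out (8.15%).

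**Figure D1:**
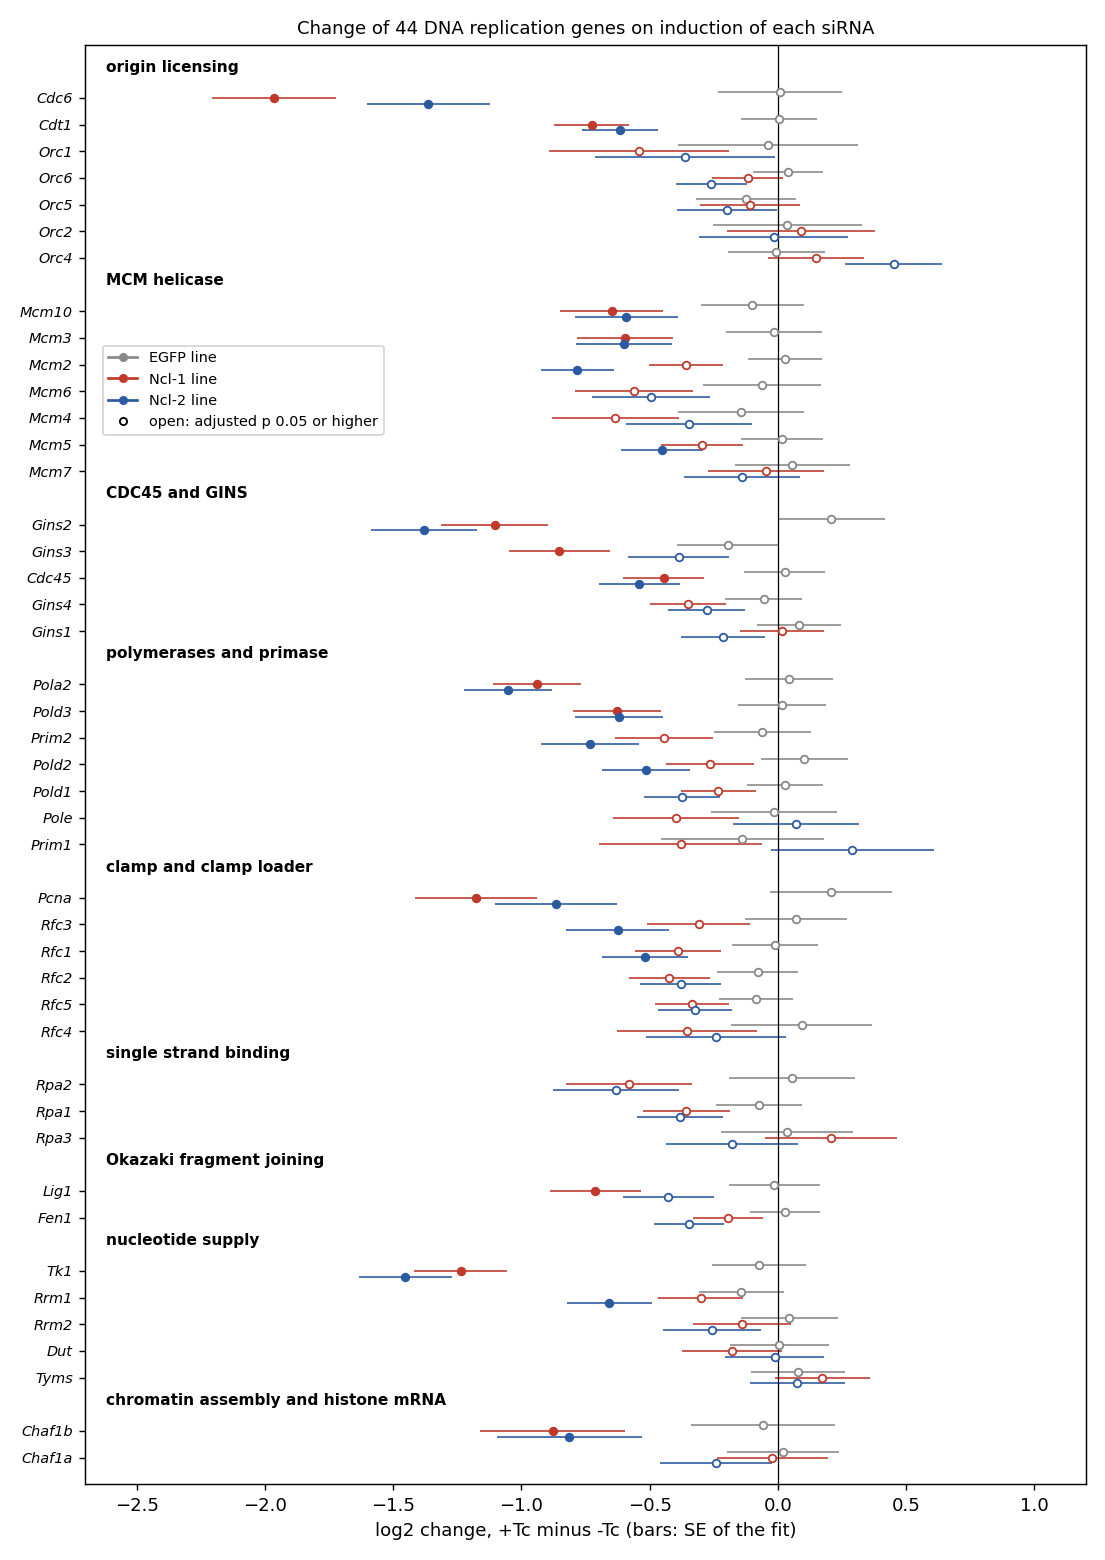
Log2 change (+Tc minus -Tc, horizontal axis) of the 44 tested genes in the EGFP, Ncl-1 and Ncl-2 lines, grouped by role. Points are fitted changes, bars their SE, and filled points have an adjusted p below 0.05. The EGFP points lie within 0.21 of 0, while Cdc6, Gins2, Pola2, Pcna and Tk1 stand farthest to the left under both siRNAs.

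The promoters of the members, whether they fell or not, were read for motifs that the replication genes are known to share. RefSeq promoters of assembly GRCm38.p6, running from 250 bases before to 50 bases after the annotated start, were found for 40 of the 47 genes. The E2F words searched were TTTCCCGC, TTTCGCGC, TTTGCCGC and TTTGGCGC on both strands, and the CCAAT box was searched as CCAAT on both strands, with overlapping matches each counted. An E2F word was present in 14 of the 40 members (35%), against 4.74% of the tested genes with a promoter and 2.6% of the 27025 genes in the whole table. A CCAAT box was present in 25 of 40 members (62.5%), against 43.1% and 41.1%. Among the members with a promoter, an E2F word stood in 8 of the 18 that fell in at least 1 nucleolin line (44.4%) and in 4 of the 19 tested genes that fell in neither (21.1%), a difference that was not tested. It stood in 4 of the 10 that fell in both lines (40%) and in 2 of the 6 past the threshold in the difference from EGFP (33.3%). A CCAAT box stood in 11 of the 18 (61.1%), 12 of the 19 (63.2%), 4 of the 10 (40%) and 2 of the 6 (33.3%).

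Promoters are shown 5′ to 3′ on the strand of the gene, with matches to either motif in capitals. Cdc6 (chr11:98907901-98908200, plus strand), Pola2 (chr19:5964157-5964456, minus strand), Pcna (chr2:132253131-132253430, minus strand) and Tk1 (chr11:117825965-117826264, minus strand) are shown because they belong to members of smallest p in the difference from EGFP. Gins2, of second smallest p, was not among the 40. Mcm3 (chr1:20820263-20820562, minus strand) and Mcm6 (chr1:128359656-128359955, minus strand) are added, chosen after their motifs were seen, to show promoters that hold both motifs. On its brightest probe Mcm6 passed in neither nucleolin line.
Cdc6: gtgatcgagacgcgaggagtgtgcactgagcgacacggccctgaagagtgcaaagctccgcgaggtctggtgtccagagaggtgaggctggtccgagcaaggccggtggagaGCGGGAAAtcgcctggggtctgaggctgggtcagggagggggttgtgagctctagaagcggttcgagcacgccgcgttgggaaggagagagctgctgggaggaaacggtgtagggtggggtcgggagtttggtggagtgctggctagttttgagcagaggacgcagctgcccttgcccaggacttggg
Pola2: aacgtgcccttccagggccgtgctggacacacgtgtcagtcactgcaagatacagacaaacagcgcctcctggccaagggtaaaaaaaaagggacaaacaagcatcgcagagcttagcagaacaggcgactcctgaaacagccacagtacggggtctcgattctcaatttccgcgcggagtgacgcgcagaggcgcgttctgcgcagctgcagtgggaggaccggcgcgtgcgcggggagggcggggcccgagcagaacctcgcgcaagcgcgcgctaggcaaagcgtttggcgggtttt
Pcna: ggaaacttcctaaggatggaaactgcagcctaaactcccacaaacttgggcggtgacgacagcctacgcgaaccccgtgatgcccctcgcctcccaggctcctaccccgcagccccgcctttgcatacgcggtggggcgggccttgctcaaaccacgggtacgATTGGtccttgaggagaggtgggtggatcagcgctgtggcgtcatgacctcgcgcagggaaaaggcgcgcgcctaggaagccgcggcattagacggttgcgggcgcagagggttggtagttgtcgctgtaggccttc
Tk1: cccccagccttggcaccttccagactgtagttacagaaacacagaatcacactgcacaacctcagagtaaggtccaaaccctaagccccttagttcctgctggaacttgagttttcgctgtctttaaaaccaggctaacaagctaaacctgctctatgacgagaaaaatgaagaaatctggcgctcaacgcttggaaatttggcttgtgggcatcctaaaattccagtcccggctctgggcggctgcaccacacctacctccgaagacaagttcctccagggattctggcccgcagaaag
Mcm3: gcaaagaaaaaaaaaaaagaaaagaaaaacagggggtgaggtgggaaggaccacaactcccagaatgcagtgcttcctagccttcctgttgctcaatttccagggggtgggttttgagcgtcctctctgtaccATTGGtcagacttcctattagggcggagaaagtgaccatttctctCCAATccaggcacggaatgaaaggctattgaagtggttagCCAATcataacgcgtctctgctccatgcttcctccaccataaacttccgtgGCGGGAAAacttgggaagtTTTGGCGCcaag
Mcm6: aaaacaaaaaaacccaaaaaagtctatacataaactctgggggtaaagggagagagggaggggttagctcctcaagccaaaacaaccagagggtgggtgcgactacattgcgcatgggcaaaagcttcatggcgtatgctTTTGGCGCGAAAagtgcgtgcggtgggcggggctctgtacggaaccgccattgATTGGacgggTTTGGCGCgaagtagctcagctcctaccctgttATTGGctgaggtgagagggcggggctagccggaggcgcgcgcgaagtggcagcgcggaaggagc
The Cdc6 promoter held 1 E2F word, which begins at position -138 from the start, and no CCAAT box in this window. Mcm3 held 2 E2F words and 3 CCAAT boxes, and Mcm6 held 3 E2F words, of which the first pair overlap, and 2 CCAAT boxes. The Pcna window held 1 CCAAT box, and those of Pola2 and Tk1 held neither word. A match describes the letters only, and binding was not measured here.

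Among the licensing genes, Cdc6 and Cdt1 fell under both siRNAs and the origin recognition subunits did not pass. CDC6 is the loader that, with the origin recognition complex, brings MCM rings to origins. Signals are listed in the order of replicates 1, 2 and 3 throughout, and a single array is called by its replicate number and group. Cdc6 signal in the EGFP line was 10.06, 9.94 and 11.80 without Tc and 10.11, 9.85 and 11.86 with Tc. Cdc6 signal in the Ncl-1 line was 9.64, 9.99 and 11.61 without Tc and 7.82, 7.92 and 9.61 with Tc. Cdc6 signal in the Ncl-2 line was 9.59, 10.01 and 10.92 without Tc and 8.58, 8.63 and 9.23 with Tc. All +Tc arrays of each nucleolin line lay below all of its -Tc arrays, narrowly so in the Ncl-1 line, while the EGFP groups overlapped and replicate 3 was the brightest of every group. Cdc6 fell by 1.96 ± 0.24 in the Ncl-1 line (adjusted p = 2.41e-05), to 25.6% of its -Tc signal, and by 1.36 ± 0.24 in the Ncl-2 line (adjusted p = 0.000605), to 38.9%. This was the largest fall among the 44 members in the Ncl-1 line. The difference from the EGFP response was -1.67 ± 0.30 (adjusted p = 0.00121). Omitting the block gave an adjusted p of 0.0942, 0.274 and 0.414 for the Ncl-1 line, the Ncl-2 line and the difference.

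CDT1 works beside CDC6 as the partner that carries the MCM ring to the origin. Cdt1 signal in the EGFP line was 11.19, 11.24 and 12.04 without Tc and 11.20, 11.34 and 11.95 with Tc. Cdt1 signal in the Ncl-1 line was 11.28, 11.64 and 12.49 without Tc and 10.51, 10.85 and 11.87 with Tc. Cdt1 signal in the Ncl-2 line was 11.18, 11.64 and 12.40 without Tc and 10.60, 11.002 and 11.77 with Tc. The +Tc and -Tc ranges of both nucleolin lines overlapped, with replicate 3 bright in each, but within every replicate number the +Tc array was the lower. Cdt1 fell by 0.73 ± 0.15 in the Ncl-1 line (adjusted p = 0.00187) and by 0.61 ± 0.15 in the Ncl-2 line (adjusted p = 0.00564), and differed from EGFP by -0.68 ± 0.18 (adjusted p = 0.0196). In the same order it was 0.409, 0.523 and 0.758 without the block. The difference from EGFP also missed the threshold without array 2 of EGFP -Tc, array 3 of EGFP -Tc or array 1 of EGFP +Tc (adjusted p of up to 0.0762). Orc1, Orc2, Orc4, Orc5 and Orc6 encode subunits of the complex that marks origins. Their changes ran from -0.54 ± 0.35 (Orc1) to 0.15 ± 0.19 (Orc4) in the Ncl-1 line and from -0.36 ± 0.35 (Orc1) to 0.45 ± 0.19 (Orc4) in the Ncl-2 line, all with an adjusted p above the threshold. Orc2 was detected on 2 of 3 arrays in the -Tc groups of both nucleolin lines and on all arrays of the other groups.

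Of the MCM genes, 2 of 7 fell in the Ncl-1 line (Mcm3 and Mcm10) and 4 of 7 in the Ncl-2 line (Mcm2, Mcm3, Mcm5 and Mcm10). Mcm2 encodes a subunit of the helicase ring. Mcm2 signal in the EGFP line was 12.23, 12.16 and 11.55 without Tc and 12.27, 12.08 and 11.67 with Tc. Mcm2 signal in the Ncl-1 line was 11.51, 11.60 and 10.93 without Tc and 11.46, 11.13 and 10.37 with Tc. Mcm2 signal in the Ncl-2 line was 11.90, 11.60 and 11.24 without Tc and 11.09, 10.89 and 10.41 with Tc. The Ncl-2 groups did not overlap, the Ncl-1 groups did, and replicate 1 of the Ncl-1 line hardly differed between +Tc and -Tc. Mcm2 fell by 0.78 ± 0.14 in the Ncl-2 line (adjusted p = 0.000788) and had -0.36 ± 0.14 in the Ncl-1 line (adjusted p = 0.0756). Its difference from EGFP was -0.60 ± 0.17 (adjusted p = 0.0311). That call was lost without any 1 of 8 arrays, namely each of the 6 EGFP arrays, array 2 of Ncl-1 -Tc and array 2 of Ncl-2 +Tc (adjusted p of up to 0.0972). Without the block the adjusted p of Mcm2 was 0.158 in the Ncl-2 line and 0.625 for the difference.

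Mcm3 encodes another ring subunit. Mcm3 signal in the Ncl-1 line was 11.53, 11.60 and 10.65 without Tc and 10.98, 11.36 and 9.65 with Tc. Mcm3 signal in the Ncl-2 line was 11.32, 11.69 and 10.58 without Tc and 10.52, 11.27 and 10.003 with Tc. Its groups overlapped in both lines, with replicate 3 the dimmest and +Tc below -Tc in each pair. The fall was 0.60 ± 0.19 under either siRNA (adjusted p = 0.0279 and 0.0265, and 0.627 and 0.634 without the block), beside -0.02 ± 0.19 in the EGFP line. Mcm10 encodes a fork protein that helps to switch the helicase on. Mcm10 signal in the Ncl-1 line was 12.28, 12.40 and 13.08 without Tc and 11.87, 11.88 and 12.07 with Tc. Mcm10 signal in the Ncl-2 line was 12.29, 12.59 and 12.46 without Tc and 11.41, 11.93 and 12.23 with Tc. Neither pair of groups overlapped, and the gap in the Ncl-2 line was narrow. Mcm10 fell by 0.65 ± 0.20 and 0.59 ± 0.20 (adjusted p = 0.0259 and 0.039, and 0.25 and 0.303 without the block), beside -0.10 ± 0.20 in the EGFP line.

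The calls of Mcm3, Mcm10 and Mcm5 each rested on single arrays. The Mcm3 call was lost in the Ncl-1 line without replicate 1 or 3 of either Ncl-1 group (adjusted p of up to 0.143), and in the Ncl-2 line without array 2 or 3 of Ncl-2 -Tc or array 1 of Ncl-2 +Tc (up to 0.172). Mcm10 lost its call in the Ncl-1 line without array 2 or 3 of Ncl-1 -Tc or array 3 of Ncl-1 +Tc (up to 0.121), and in the Ncl-2 line without array 1 or 2 of Ncl-2 -Tc or array 1 or 3 of Ncl-2 +Tc (up to 0.188). Mcm5, also of the ring, fell by 0.45 ± 0.16 in the Ncl-2 line (adjusted p = 0.047, and 0.291 without the block) and had -0.30 ± 0.16 in the Ncl-1 line. The Mcm5 call was lost without any 1 of 13 arrays, namely arrays 1 to 3 of EGFP -Tc, arrays 2 and 3 of EGFP +Tc, array 2 of Ncl-1 -Tc, arrays 1 and 2 of Ncl-1 +Tc, arrays 1 and 2 of Ncl-2 -Tc, and arrays 1 to 3 of Ncl-2 +Tc (up to 0.174). Mcm4, Mcm6 and Mcm7, the remaining ring subunits, did not pass. Mcm4 had -0.63 ± 0.25 and -0.35 ± 0.25 in the Ncl-1 and Ncl-2 lines, Mcm6 -0.56 ± 0.23 and -0.50 ± 0.23, and Mcm7 -0.05 ± 0.23 and -0.14 ± 0.23.

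CDC45 and the GINS subunits turn the MCM ring into a working helicase. Of their 5 genes, 3 fell in the Ncl-1 line (Cdc45, Gins2 and Gins3) and 2 in the Ncl-2 line (Cdc45 and Gins2). Gins2 signal in the EGFP line was 10.93, 10.82 and 9.72 without Tc and 11.18, 10.995 and 9.92 with Tc. Gins2 signal in the Ncl-1 line was 11.09, 11.37 and 10.30 without Tc and 9.73, 10.31 and 9.41 with Tc. Gins2 signal in the Ncl-2 line was 11.14, 11.59 and 10.71 without Tc and 9.58, 10.15 and 9.58 with Tc. The Ncl-2 groups did not overlap, the Ncl-1 groups overlapped narrowly, and every EGFP pair was slightly higher with Tc. Gins2 fell by 1.10 ± 0.21 in the Ncl-1 line (adjusted p = 0.00106), to 46.5% of its -Tc signal, and by 1.38 ± 0.21 in the Ncl-2 line (adjusted p = 0.000153), to 38.4%. Its difference from EGFP was -1.45 ± 0.25 (adjusted p = 0.00117). The adjusted p without the block was 0.128 in the Ncl-1 line, 0.0499 in the Ncl-2 line and 0.164 for the difference.

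Cdc45 had smaller and less firm values. Cdc45 signal in the Ncl-1 line was 11.07, 10.93 and 10.89 without Tc and 10.83, 10.64 and 10.10 with Tc. Cdc45 signal in the Ncl-2 line was 11.17, 11.17 and 10.30 without Tc and 10.54, 10.46 and 10.02 with Tc. The Ncl-1 groups stood apart by a small gap, and in the Ncl-2 line the dim replicate 3 without Tc fell among the +Tc arrays. Cdc45 fell by 0.44 ± 0.16 (adjusted p = 0.0478) and 0.54 ± 0.16 (adjusted p = 0.0186) in the Ncl-1 and Ncl-2 lines, with an adjusted p of 0.393 and 0.267 without the block. Its change in the EGFP line was 0.03. The Ncl-1 call of Cdc45 was lost without any 1 of 16 arrays, all but arrays 2 and 3 of Ncl-2 -Tc (adjusted p of up to 0.236), and its Ncl-2 call without replicate 1 or 2 of either Ncl-2 group (up to 0.0996). Gins3 fell by 0.85 ± 0.20 in the Ncl-1 line (adjusted p = 0.0047, and 0.451 without the block) and had -0.39 ± 0.20 in the Ncl-2 line (adjusted p = 0.162). Gins4 had -0.35 ± 0.15 and -0.28 ± 0.15, and Gins1 0.02 ± 0.16 and -0.21 ± 0.16, none past the threshold.

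Of the polymerase and primase genes, 2 of 7 fell in the Ncl-1 line (Pola2 and Pold3) and 4 of 7 in the Ncl-2 line (Pola2, Pold3, Prim2 and Pold2). Pola2, the 1 member called in both nucleolin lines with and without the block, encodes the regulatory subunit that ties polymerase alpha to primase. Pola2 signal in the EGFP line was 10.17, 10.22 and 10.12 without Tc and 10.28, 10.29 and 10.07 with Tc. Pola2 signal in the Ncl-1 line was 10.30, 10.43 and 10.82 without Tc and 9.66, 9.60 and 9.48 with Tc. Pola2 signal in the Ncl-2 line was 10.78, 10.62 and 10.23 without Tc and 9.50, 9.64 and 9.33 with Tc. Every +Tc array of the nucleolin lines lay below every other array, and replicate 3 did not stand apart as it did for Cdc6. Pola2 fell by 0.94 ± 0.17 in the Ncl-1 line (adjusted p = 0.000829), to 52.2% of its -Tc signal, and by 1.05 ± 0.17 in the Ncl-2 line (adjusted p = 0.000298), to 48.2%. The difference from EGFP was -1.04 ± 0.21 (adjusted p = 0.00326). Without the block these calls kept adjusted p-values of 0.0063, 0.00252 and 0.0222.

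Pold3, an accessory subunit of DNA polymerase delta, fell under both siRNAs as well. Pold3 signal in the Ncl-1 line was 9.80, 9.98 and 10.39 without Tc and 8.96, 9.62 and 9.71 with Tc. Pold3 signal in the Ncl-2 line was 9.86, 10.28 and 10.51 without Tc and 9.23, 9.89 and 9.68 with Tc. The Ncl-1 groups did not overlap and the Ncl-2 groups overlapped narrowly. Pold3 fell by 0.63 ± 0.17 (adjusted p = 0.0127) and 0.62 ± 0.17 (adjusted p = 0.013) in the Ncl-1 and Ncl-2 lines, beside 0.02 ± 0.17 in the EGFP line, and the adjusted p without the block was 0.173 and 0.176. Its calls were lost without array 3 of Ncl-1 -Tc or array 1 of Ncl-1 +Tc (adjusted p of up to 0.074) and without array 1 or 3 of Ncl-2 +Tc (up to 0.0621). Prim2, the large primase subunit, fell by 0.73 ± 0.19 in the Ncl-2 line (adjusted p = 0.00928, and 0.27 without the block), a call lost without array 2 of Ncl-2 -Tc (0.0552). Pold2, another accessory subunit of polymerase delta, fell there by 0.51 ± 0.17 (adjusted p = 0.0347, and 0.619 without the block), a call lost without array 1 or 3 of Ncl-2 -Tc or array 1 or 2 of Ncl-2 +Tc (up to 0.157). In the Ncl-1 line Prim2 had -0.44 ± 0.19 and Pold2 -0.26 ± 0.17. Pold1 and Pole, the catalytic subunits of polymerases delta and epsilon, did not pass, with -0.23 ± 0.15 and -0.40 ± 0.25 in the Ncl-1 line and -0.37 ± 0.15 and 0.07 ± 0.25 in the Ncl-2 line. Prim1, the catalytic primase subunit, had -0.38 ± 0.32 and 0.29 ± 0.32 and was near the detection limit, with all 3 arrays detected only in the Ncl-2 +Tc group.

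**Figure D2:**
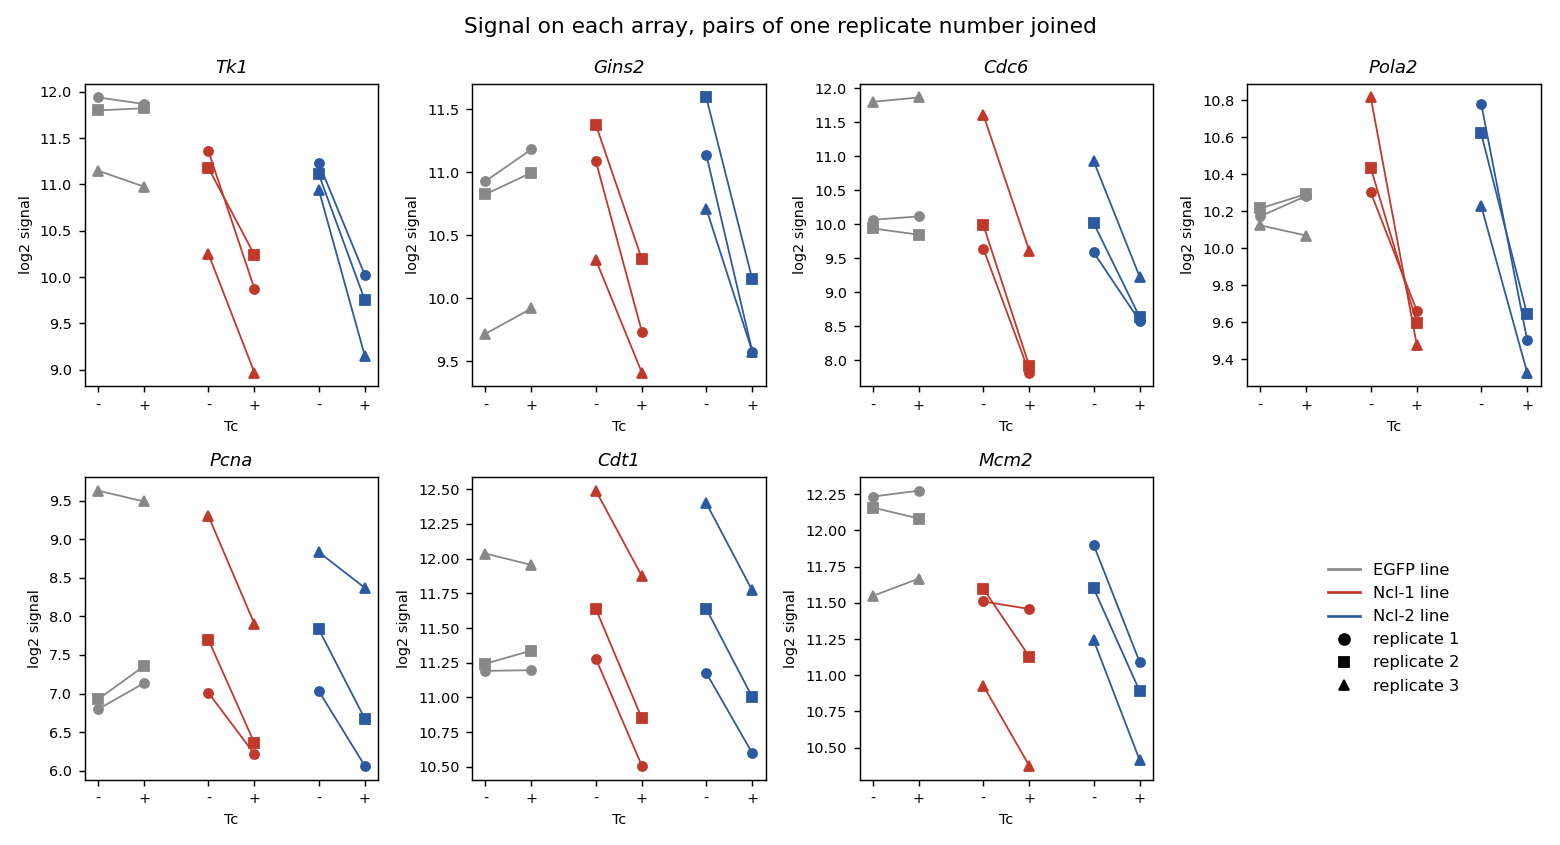
Log2 signal (vertical axis, a separate scale in each panel) on each of the 18 arrays for the 7 members whose nucleolin response differed from the EGFP response. Lines join the -Tc and +Tc arrays of 1 replicate number, and symbols mark the number. The EGFP pairs rise in all 3 for Gins2 and differ in direction within each of the other genes, and the nucleolin lines slope down in every pair, least so for Mcm2 in replicate 1 of the Ncl-1 line.

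PCNA is the ring that tethers polymerases to DNA, and its transcript fell under both siRNAs. Pcna signal in the EGFP line was 6.80, 6.93 and 9.63 without Tc and 7.14, 7.36 and 9.49 with Tc. Pcna signal in the Ncl-1 line was 7.01, 7.70 and 9.30 without Tc and 6.22, 6.36 and 7.90 with Tc. Pcna signal in the Ncl-2 line was 7.03, 7.83 and 8.83 without Tc and 6.06, 6.67 and 8.37 with Tc. Replicate 3 was the brightest of every group and the groups overlapped, while each nucleolin pair was lower with Tc. Pcna fell by 1.18 ± 0.24 in the Ncl-1 line (adjusted p = 0.00179), to 44.2%, and by 0.86 ± 0.24 in the Ncl-2 line (adjusted p = 0.0131), to 54.9%. The difference from EGFP was -1.23 ± 0.29 (adjusted p = 0.00945). Without the block the adjusted p was 0.542, 0.718 and 0.809, and the Ncl-2 call was also lost without array 2 of Ncl-2 -Tc or array 1 of Ncl-2 +Tc (up to 0.0885).

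The RFC genes encode the loader that opens the PCNA ring. In the Ncl-2 line Rfc1, the large subunit, fell by 0.52 ± 0.17 (adjusted p = 0.0309, and 0.17 without the block) and Rfc3, a small subunit, by 0.62 ± 0.20 (adjusted p = 0.0294, and 0.482 without the block). The Rfc1 call was lost without array 1 or 2 of Ncl-2 -Tc or array 1 or 3 of Ncl-2 +Tc (up to 0.116), and the Rfc3 call without array 2 or 3 of Ncl-2 -Tc or array 1 or 3 of Ncl-2 +Tc (up to 0.105). None of the 5 RFC genes passed in the Ncl-1 line, where their changes ran from -0.42 ± 0.16 (Rfc2) to -0.31 ± 0.20 (Rfc3). Rfc2, Rfc4 and Rfc5, small subunits, had -0.38 ± 0.16, -0.24 ± 0.27 and -0.32 ± 0.14 in the Ncl-2 line.

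RPA coats the single strands that the helicase exposes, and none of its 3 genes passed in either line. Rpa2, the middle subunit, had the lowest values of the group. Rpa2 signal in the EGFP line was 10.89, 10.79 and 10.15 without Tc and 10.97, 10.66 and 10.36 with Tc. Rpa2 signal in the Ncl-1 line was 10.40, 11.16 and 10.33 without Tc and 9.95, 10.31 and 9.90 with Tc. Rpa2 signal in the Ncl-2 line was 10.28, 11.16 and 11.03 without Tc and 9.87, 10.79 and 9.93 with Tc. The Ncl-1 groups were separate by a narrow margin and the Ncl-2 groups overlapped, although each pair was lower with Tc. The changes were -0.58 ± 0.25 (adjusted p = 0.093) and -0.63 ± 0.25 (adjusted p = 0.0681). Rpa1, the large subunit, had -0.36 ± 0.17 and -0.38 ± 0.17, and Rpa3, the small subunit, 0.21 ± 0.26 and -0.18 ± 0.26.

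Lig1, the ligase that seals Okazaki fragments on the lagging strand, fell in the Ncl-1 line. Lig1 signal in the EGFP line was 10.78, 10.75 and 12.16 without Tc and 10.75, 10.87 and 12.03 with Tc. Lig1 signal in the Ncl-1 line was 10.69, 11.43 and 12.45 without Tc and 9.92, 10.83 and 11.68 with Tc. Lig1 signal in the Ncl-2 line was 10.67, 11.44 and 12.17 without Tc and 10.38, 10.78 and 11.85 with Tc. The groups overlapped in all lines, and each nucleolin pair was lower with Tc. Lig1 fell by 0.71 ± 0.18 in the Ncl-1 line (adjusted p = 0.00786, and 0.605 without the block) and had -0.43 ± 0.18 in the Ncl-2 line (adjusted p = 0.0878). The Ncl-1 call was lost without array 1 of Ncl-1 +Tc (0.0521). Fen1, the nuclease that trims the fragments' flaps, had -0.19 ± 0.14 and -0.35 ± 0.14.

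The genes of nucleotide supply held 1 member that fell under both siRNAs, Tk1, and 1 that fell in the Ncl-2 line alone, Rrm1, while Rrm2, Tyms and Dut did not pass. TK1 salvages thymidine in S phase. Tk1 signal in the EGFP line was 11.94, 11.80 and 11.15 without Tc and 11.87, 11.82 and 10.98 with Tc. Tk1 signal in the Ncl-1 line was 11.36, 11.18 and 10.25 without Tc and 9.87, 10.24 and 8.97 with Tc. Tk1 signal in the Ncl-2 line was 11.23, 11.11 and 10.94 without Tc and 10.02, 9.75 and 9.15 with Tc. The +Tc arrays lay below the -Tc arrays in both nucleolin lines, with a gap near 0 in the Ncl-1 line. Tk1 fell by 1.24 ± 0.18 in the Ncl-1 line (adjusted p = 0.000126), to 42.5% of its -Tc signal, and by 1.45 ± 0.18 in the Ncl-2 line (adjusted p = 2.7e-05), to 36.5%. The Ncl-2 value was the largest fall among the 44 members in that line. The difference from EGFP was -1.27 ± 0.22 (adjusted p = 0.00115), and the adjusted p without the block was 0.0596, 0.025 and 0.191 for the Ncl-1 line, the Ncl-2 line and the difference. Rrm1, the large subunit of ribonucleotide reductase, fell by 0.66 ± 0.17 in the Ncl-2 line (adjusted p = 0.00812, and 0.0677 without the block), a call lost without array 1 of Ncl-2 +Tc (0.0631), and had -0.30 ± 0.17 in the Ncl-1 line. Its partner Rrm2 had -0.14 ± 0.19 and -0.26 ± 0.19. Tyms, the thymidylate synthase, had 0.17 ± 0.18 and 0.08 ± 0.18, and Dut, which removes dUTP, had -0.18 ± 0.19 and -0.01 ± 0.19.

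CHAF1B and CHAF1A are subunits of the factor that deposits histones on new DNA. Chaf1b signal in the EGFP line was 11.31, 11.27 and 11.61 without Tc and 11.25, 11.31 and 11.46 with Tc. Chaf1b signal in the Ncl-1 line was 11.24, 11.60 and 11.01 without Tc and 10.70, 10.87 and 9.65 with Tc. Chaf1b signal in the Ncl-2 line was 10.85, 10.82 and 11.24 without Tc and 9.88, 9.97 and 10.63 with Tc. The groups of both nucleolin lines were separate and those of the EGFP line overlapped. Chaf1b fell by 0.88 ± 0.28 in the Ncl-1 line (adjusted p = 0.0306, and 0.0889 without the block) and by 0.81 ± 0.28 in the Ncl-2 line (adjusted p = 0.0428, and 0.116 without the block). The Ncl-1 call was lost without array 1 or 2 of Ncl-1 -Tc or array 3 of Ncl-1 +Tc (adjusted p of up to 0.203). The Ncl-2 call was lost without any 1 of 10 arrays, namely array 1 of EGFP -Tc, arrays 1 to 3 of EGFP +Tc, array 1 of Ncl-1 -Tc, arrays 1 to 3 of Ncl-2 -Tc, and arrays 1 and 2 of Ncl-2 +Tc (up to 0.163). Chaf1a had -0.02 ± 0.22 and -0.24 ± 0.22.

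The responses to the 2 siRNAs were then set against each other. The test of their difference (Ncl-1 minus Ncl-2) brought 0 of the 44 members past the threshold in limma (0% of all genes). At an unadjusted p below 0.05 there were 0 members, beside 164 genes lower and 131 higher of all 10557. The members' differences ran from -0.67 to 0.42 with a median of 0.07. For Mcm2, called in the Ncl-2 line alone, the difference was 0.42 ± 0.20, and for Gins3, called in the Ncl-1 line alone, it was -0.47 ± 0.28, so a call in one line does not show that the lines differ. Across the 44 genes the changes in the Ncl-1 and Ncl-2 lines had a Pearson r of 0.80 and a Spearman rho of 0.76. The points share the array platform and the replicate block, the -Tc arrays are each line's own, and genes are not independent replicates.

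**Figure D3:**
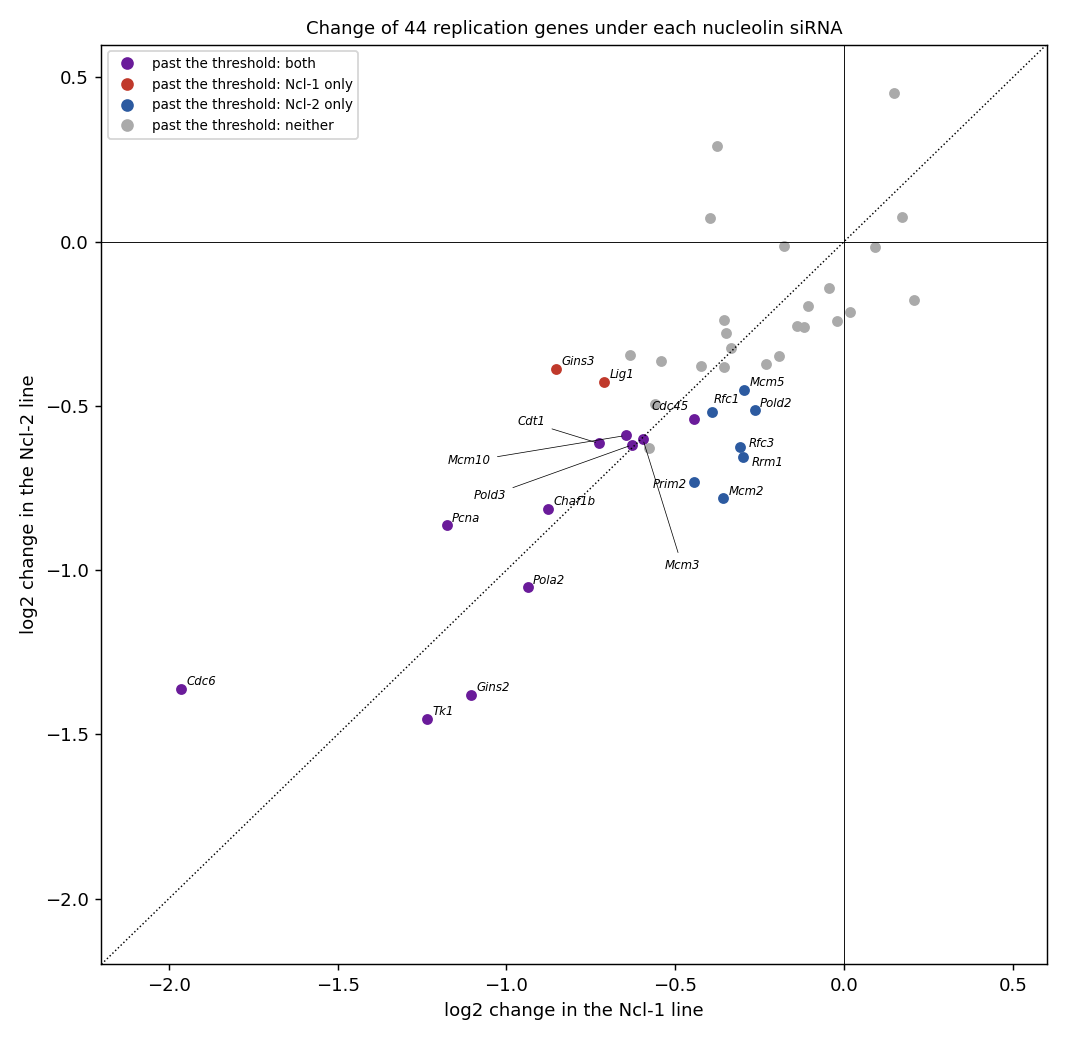
Log2 change (+Tc minus -Tc) of each of the 44 members in the Ncl-1 line (horizontal axis) against the Ncl-2 line (vertical axis), with the dotted line marking equal change. Colours mark in which line a gene passed the threshold, and genes that passed are named. Cdc6, Tk1, Gins2, Pola2 and Pcna lie farthest down and to the left, and 37 genes lie below 0 on both axes.

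The members were also counted by array and by pair, with no model. All 3 +Tc arrays lay below all 3 -Tc arrays for 11 members in the Ncl-1 line (10.6% of all genes), 14 in the Ncl-2 line (11.6% of all genes) and 0 in the EGFP line (1.17% of all genes). Within pairs of the same replicate number, +Tc was below -Tc in 3 of 3 pairs for 31 members in the Ncl-1 line (30.7% of all genes), 35 in the Ncl-2 line (33.8%) and 5 in the EGFP line (13.3%). In both nucleolin lines at once this held for 27 members, against 21.3% of all genes. In the other direction, all +Tc arrays lay above all -Tc arrays for 1 member in the Ncl-2 line, Orc4 (1309 of all 10557 genes). There were 0 such members in the Ncl-1 and EGFP lines (1272 and 71 genes). Higher in 3 of 3 pairs were 0 members in the Ncl-1 line, 2 in the Ncl-2 line and 2 in the EGFP line (2826, 3028 and 1257 genes). The median difference of the members by pair was -0.26, -0.28 and -0.64 in replicates 1, 2 and 3 of the Ncl-1 line and -0.50, -0.40 and -0.38 in those of the Ncl-2 line. Every one of these 6 pairs was below the EGFP pairs, which had medians of 0.00, -0.01 and -0.01. Across the 44 members the mean signal and the mean change of the nucleolin lines had a Pearson r of -0.04 and a Spearman rho of 0.08. With replicates 1 and 2 alone, 7 members were lower in the Ncl-1 line (8.25% of all genes) and 17 in the Ncl-2 line (12.2%).

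**Figure D4:**
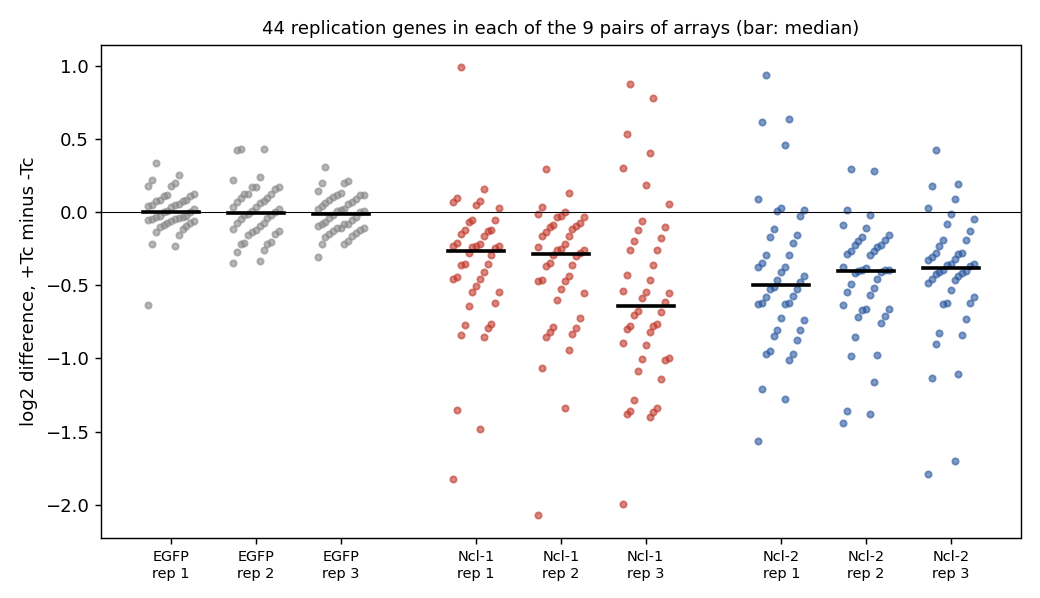
Log2 difference, +Tc minus -Tc, of the 44 members (points) in each of the 9 pairs of arrays that share a line and a replicate number, with the median as a bar. The EGFP medians lie at 0 and the 6 nucleolin medians between -0.26 and -0.64, the lowest in replicate 3 of the Ncl-1 line.

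In the cultures kept without Tc few members differed between the lines. Against the EGFP line without Tc, 2 of 44 members were lower in the Ncl-1 line (4.54% of all genes) and 0 higher (4.15%). The differences were -0.63 ± 0.14 for Mcm2 (adjusted p = 0.0117) and -0.70 ± 0.18 for Tk1 (adjusted p = 0.0251). Neither passed without the block (adjusted p = 0.573 and 0.639). The Mcm2 call was lost without array 1 of Ncl-1 -Tc (0.0714), and the Tk1 call without any of the 3 EGFP -Tc or 3 Ncl-1 -Tc arrays (up to 0.0991). In the Ncl-2 line limma called 0 members lower (6.37% of all genes) and 0 higher (5.73%). At an unadjusted p below 0.05, 3 members were lower and 5 higher, beside 1478 and 1366 of all 10557 genes. There Mcm2 had -0.40 ± 0.14 and Tk1 -0.54 ± 0.18, both short of the threshold. Between the nucleolin lines without Tc, 0 members passed (0% of all genes). There 0 members had an unadjusted p below 0.05, beside 234 genes lower and 282 higher of all 10557.

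Several members were read by more than 1 probe, and the values above come from the brightest probe kept for each gene. Of the 93 probes 75 were kept, and 19 members had more than 1. Tested probe by probe over 19154 probes, 21 member probes were lower and 1 higher in the Ncl-1 line, 31 and 0 in the Ncl-2 line, and 14 and 0 in the difference from EGFP. Of all probes 10.9%, 12.3% and 4.88% were lower and 12.1%, 12.1% and 7.24% higher in the same order. Without the block 3 member probes were lower in the Ncl-1 line (of Gins2, Pola2 and Tk1), 5 in the Ncl-2 line (of those genes and Cdc6) and 3 in the difference (of Gins2, Pola2 and Tk1), beside 1.83%, 2.28% and 0.517% of all probes. All 3 Gins2 probes fell under both siRNAs, with changes of -1.10, -1.25 and -1.17 in the Ncl-1 line and -1.38, -1.30 and -1.45 in the Ncl-2 line. Both kept Tk1 probes fell, the second by 1.22 and 1.34 in the Ncl-1 and Ncl-2 lines. The second Cdc6 probe, a dim one, fell by 1.64 in the Ncl-2 line and had -0.69 (adjusted p = 0.0625) in the Ncl-1 line. The Cdc45 probe in the Ncl-1 line and the Mcm5 probe in the Ncl-2 line, both called at gene level, had an adjusted p of 0.0584 and 0.0557 over all probes. Some members that had not passed did so on another probe: Mcm6 by 0.66 and 0.82 in the Ncl-1 and Ncl-2 lines, and Rfc2 by 0.52 and 0.47. Rfc5 did so by 0.54 in the Ncl-2 line (adjusted p = 0.0458). In the difference from EGFP 10 members had a lower probe. Mcm10, Rfc2 and Lig1 passed there on a dimmer probe (adjusted p = 0.0452, 0.0383 and 0.0225), beside the 7 called on the brightest. Lig1 and Rrm1 passed on a second probe in the line where the brightest had not, with Lig1 at -0.85 (adjusted p = 0.000588) in the Ncl-2 line and Rrm1 at -0.75 (adjusted p = 0.0208) in the Ncl-1 line. Probes of Rrm2 and Tyms disagreed. The dimmest kept Rrm2 probe rose by 1.01 in the Ncl-1 line (adjusted p = 0.0328) where the others had -0.14 and -0.54, and a dim Tyms probe fell by 0.63 in the Ncl-2 line (adjusted p = 0.0104) where the brightest had 0.08. For these genes the direction depends on the probe.

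Other genes of replication and of the cell cycle were set beside the members. Of a wider list of 41 genes that act at origins, forks or new chromatin and are not members, 35 were tested, and 8 fell in the Ncl-1 line and 8 in the Ncl-2 line (22.9% in each, against 12.6% and 13.1% of all genes), while 0 rose in either (against 14.3% and 13.9%). Their medians were -0.39 and -0.25. Nasp, a histone chaperone, fell by 1.01 ± 0.21 and 0.79 ± 0.21 (adjusted p = 0.00237 and 0.011). Uhrf1, which brings the maintenance DNA methyltransferase to new DNA, fell by 0.76 ± 0.17 and 0.63 ± 0.17 (adjusted p = 0.00309 and 0.0103). Top1, the topoisomerase that relaxes DNA ahead of the fork, fell by 0.79 ± 0.18 and 0.82 ± 0.18 (adjusted p = 0.00379 and 0.00271). Cdc7, the kinase that triggers the loaded helicase, fell by 0.80 ± 0.19 and 0.75 ± 0.19 (adjusted p = 0.00652 and 0.00908). Without the block the Top1 call in the Ncl-2 line held (adjusted p = 0.0388) and the other 7 did not (from 0.0509 to 0.634). Nasp, Uhrf1 and Top1 also passed in the difference from EGFP (adjusted p = 0.0222, 0.0208 and 0.049), and Cdc7 did not (0.0589).

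Genes of G2 and mitosis were read in the same way. Of 20 such genes 14 were tested, and 1 fell in the Ncl-1 line (Ccna2, a cyclin of S phase and G2, by 0.86 ± 0.22) and 3 in the Ncl-2 line, with medians of -0.31 and -0.20. These are 7.14% and 21.4% of the 14, against 12.6% and 13.1% of all genes, and 0 rose in either. Plk1, a mitotic kinase, fell by 0.49 ± 0.16 in the Ncl-2 line (adjusted p = 0.0323), Aurkb, the kinase of the chromosomal passenger complex, by 0.48 ± 0.14 (adjusted p = 0.0215) and Birc5, its partner survivin, by 0.50 ± 0.17 (adjusted p = 0.0355). Cdk1, the kinase that drives entry into mitosis, had -0.38 ± 0.16 and -0.39 ± 0.16 (adjusted p = 0.0977 and 0.0933). None of the 14 passed in the difference from EGFP by limma, beside 5.51% of all genes lower and 8.87% higher. At an unadjusted p below 0.05 there were 0 of the 14, beside 1388 genes lower and 1552 higher of all 10557. Whether the 14 differ from the replication genes was not tested. No G2 or mitosis gene kept its call without the block. Cdkn1a, which encodes the cyclin-dependent kinase inhibitor p21, rose by 1.75 ± 0.23 and 1.51 ± 0.23 in the Ncl-1 and Ncl-2 lines (adjusted p = 3.87e-05 and 0.00014, and 0.00927 and 0.0205 without the block), beside 0.10 ± 0.23 in the EGFP line.

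Markers of cell state moved with the same arrays. All 10 embryonic stem cell markers were detected, and their summed signal was 107700 to 115300 units without Tc and 94780 to 114900 with Tc in the Ncl-1 line, 109900 to 111300 and 97920 to 103700 in the Ncl-2 line, and 92200 to 103800 and 93510 to 97290 in the EGFP line. Of the 10, 1 fell and 1 rose in the Ncl-1 line (12.6% and 14.3% of all genes). In the Ncl-2 line 2 fell and 1 rose (13.1% and 13.9%). Tcl1 fell the most under both siRNAs, with changes of -1.46 and -1.36. Pou5f1 fell in the Ncl-2 line alone (-0.54 ± 0.18, adjusted p = 0.0394) and had -0.25 ± 0.18 in the Ncl-1 line, Nanog had -0.08 ± 0.22 and 0.22 ± 0.22, and Sox2 rose by 0.81 ± 0.18 and 0.60 ± 0.18 (adjusted p = 0.00412 and 0.0224). None of these calls held without the block (adjusted p = 0.718 for Pou5f1, and 0.565 and 0.728 for Sox2). Of 8 trophectoderm markers 4 were tested. The keratin gene Krt7 rose by 3.36 ± 0.38 and 4.01 ± 0.38 and the transcription factor gene Tfap2c by 2.94 ± 0.30 and 2.86 ± 0.30. All 4 calls held without the block (adjusted p of up to 0.00102). The other 2 tested markers passed in neither nucleolin line. The lowest change of the 4 markers was -0.02 in the Ncl-1 line and 0.50 in the Ncl-2 line. Cdx2, Eomes, Gata3 and Hand1 were not detected on all 3 arrays of any group. The summed signal of the 4 tested markers was between 1244 and 2451 units on the Ncl-1 arrays without Tc and between 8346 and 12540 with Tc. The corresponding ranges were 1499 to 1968 and 9105 to 11330 in the Ncl-2 line, and 1707 to 3640 and 1676 to 3800 in the EGFP line. Of the fibroblast or feeder markers 2 of 8 were tested and none passed, and Col1a1, Col1a2, Col3a1, Postn and Lum were not detected on all 3 arrays of any group. The part of these changes, of the rise of Cdkn1a or of the brightness of replicate 3 in the values of the replication genes was not tested.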

How the data were processed

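RNA from 18 CGR8 samples was amplified to biotinylated cRNA and hybridised to BeadChips, per the labels' protocols. The authors deposited raw probe intensities, not normalized between arrays, each with a detection p-value from their software. The submitters' processing notes name GenomeStudio 2010.1, with its background option not given in the sources used here. A second intensity table that the authors deposited had been normalized in a way the sources used here do not state, and it served as an alternative. Every column of per-sample values was used. Precision is limited by the number of arrays, 3 per group.

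Intensities were corrected in R 4.3.3 with limma 3.58.1 (normexp with negative controls inferred from the detection p-values, offset 16), quantile normalized and put on the log2 scale. Probes had to reach a detection p below 0.05 on each array of 1 or more groups, and 19154 of 45281 did. Symbols came from GEO's platform annotation and were matched to RefSeq genes of GRCm38.p6. The brightest such probe stood for its gene, giving 10557 genes. A limma model with 6 group means and the replicate number as a block was fitted to the 18 arrays (10 residual degrees of freedom, and 12 without the block), with Benjamini-Hochberg adjustment at 0.05. The code was tested on simulated data.

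Samples were paired by the replicate number of the titles, entered in the main fit as a block common to all lines. A separate block within each line was an alternative. As a check of the pairing, residuals about the group means were correlated between arrays. Over the 45 pairs sharing a number r was 0.302 to 0.959 (median 0.717), all above 0. Over the 90 pairs sharing neither number nor group r was -0.88 to 0.728 (median -0.402). The ranges overlapped, and the highest r of these 90 pairs lay above the median of the 45. The labels do not state that a number marks a shared culture or day, so the report gives results without the block beside its calls. Nor do they state whether replicates came from separate cultures, so p-values measure only the spread between these samples, and that spread may be technical.

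The members, the gene lists and the tests were chosen with earlier results of these data known. Values on every array are given for members past the threshold in the difference from EGFP or of smallest p in each of 9 role groups. They are also given for members past the threshold in both nucleolin lines, but without the EGFP arrays for Mcm3, Mcm10, Cdc45 and Pold3. From the wider replication list and the G2 and mitosis list the 4 genes of smallest p in the difference from EGFP are named. The G2 and mitosis genes called in a nucleolin line are named as well. Alternatives covered the block, replicate 3, the offset, background correction, normalization, the detection filter, probe choice, array weights, the authors' normalized table and each array left out.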

Additional observations from a re-analysis of the deposited data

Results flagged for a closer look

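For 7 members the response to the nucleolin siRNAs differed from the response to the EGFP siRNA in a test of the difference itself, by limma with the replicate block. In log2 units the difference was -1.67 for Cdc6, -1.45 for Gins2, -1.27 for Tk1, -1.23 for Pcna, -1.04 for Pola2, -0.68 for Cdt1 and -0.60 for Mcm2. Each was lower with Tc in 3 of 3 pairs of both nucleolin lines. Without the block the Pola2 difference alone passed on the brightest probe of each gene (adjusted p = 0.0222). Tested probe by probe, Gins2 and Tk1 also had a probe that passed without the block. The cause of the dependence on the block was not tested. The differences of Cdc6, Gins2, Pola2, Pcna and Tk1 passed in all 18 fits that left out 1 array, and those of Cdt1 and Mcm2 did not (adjusted p of up to 0.0762 and 0.0972). With each array scaled to its median, the differences of Cdc6, Gins2 and Tk1 passed and those of the other 4 did not (adjusted p = 0.0996 for Pola2 and 0.161 for Pcna).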

How the results depend on the processing

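With quantile normalization and the replicate block, 13, 18 and 7 members were lower in the Ncl-1 line, Ncl-2 line and difference from EGFP. Of all genes 12.6%, 13.1% and 5.51% were lower in the same order. No member that passed changed its direction under any of the 12 tested alternatives or the 18 omissions of 1 array. Without the replicate block the counts were 1, 3 and 1 (2.73%, 3.15% and 0.758% of all genes). As shares of the members these were 2.27%, 6.82% and 2.27%, in the Ncl-1 line no more than among all genes. For the Ncl-1 line against the EGFP line without Tc the count was then 0 in place of 2 (0.398% of all genes). With a separate block within each line, 38.6% and 54.5% of the members were lower in the Ncl-1 and Ncl-2 lines (19% and 18.7% of all genes). The difference from EGFP had 12 lower under it (9.96% of all genes). The Ncl-1 line against EGFP without Tc then had 1 higher (7.47% of all genes). The Ncl-2 line against EGFP without Tc had 2 lower and 3 higher (11.2% and 9.98% of all genes). Replicates 1 and 2 alone gave 7 lower in the Ncl-1 line (8.25% of all genes) and an EGFP median of -0.012. They gave 1 lower for the Ncl-2 line against EGFP without Tc (3.11% of all genes). Replicate 3 alone, with no test, gave medians of -0.011 (EGFP), -0.64 (Ncl-1), -0.53 (difference from EGFP), -0.15 (Ncl-1 minus Ncl-2), 0.043 (Ncl-1 against EGFP without Tc) and 0.17 (Ncl-1 against Ncl-2 without Tc).

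Median scaling gave 5, 5 and 3 lower (3.86%, 6.01% and 0.995% of all genes). Its medians were -0.14 in the EGFP line and -0.55 in the Ncl-2 line. Without Tc it gave 0 lower (1.84% of all genes) and a median of -0.16 for the Ncl-1 line against EGFP. For the Ncl-2 line against EGFP the median was -0.20. Cyclic loess gave medians of 0.016 (EGFP) and -0.31 (difference from EGFP). For the Ncl-2 line against EGFP without Tc, cyclic loess called 1 lower (6.63% of all genes). An offset of 50 called 2 lower and 1 higher there (6.57% and 5.85% of all genes). A detection p below 0.01 called 1 higher (6.41%), and the mean of detected probes called 1 lower and 2 higher (6.68% and 5.54%). Array weights, whose estimation stopped before full convergence, gave 29 lower and 1 higher in the Ncl-2 line with a median of -0.48. Of all genes 23.4% were lower and 20.5% higher there under these weights. The weights gave 19 lower in the difference from EGFP (19.5% of all genes), and an EGFP median of -0.0061. Without Tc they gave 4 lower and 2 higher for Ncl-1 against EGFP (11.3% and 11.1% of all genes). For Ncl-2 against EGFP they gave 4 lower and 5 higher (12.8% and 12.6% of all genes). The cause of these shifts was not tested.

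With 1 array left out, 9 to 15 members were lower in the Ncl-1 line, 7 to 18 in the Ncl-2 line (0 to 1 higher) and 5 to 8 in the difference from EGFP. Of all genes 7.77% to 13.3%, 8.15% to 14.2% and 3.55% to 6.34% were lower in the same order. Higher calls in the Ncl-2 line were 10.5% to 14.6% of all genes. Medians ran from -0.042 to 0.032 (EGFP), -0.45 to -0.37 (Ncl-2) and -0.45 to -0.31 (difference from EGFP). Without Tc the Ncl-1 line against EGFP had 0 to 3 lower (2.03% to 5.3% of all genes) and a median from -0.11 to 0.094. The Ncl-2 line against EGFP without Tc had 0 to 1 lower (2.38% to 7.05%) and 0 to 1 higher (2.15% to 6.56%). Signal near background limits Prim1 and Orc2, and leaves Pola1, Pole2 and Slbp unmeasured.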

Other observations

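Further genes of the wider replication list, named after their values were seen, passed in the nucleolin lines. Wdhd1, which links the helicase to polymerase alpha, fell by 0.79 ± 0.20 under Ncl-1 and 0.63 ± 0.20 under Ncl-2 (adjusted p by limma = 0.0091 and 0.0317, 0.216 and 0.363 without the block). Top2a, the topoisomerase that untangles replicated DNA, fell by 0.50 ± 0.17 and 0.54 ± 0.17 (adjusted p = 0.0436 and 0.0301, 0.453 and 0.408 without the block).

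Markers of other cell types gave few calls. Of 8 primitive endoderm markers 4 were tested, and in the Ncl-2 line Gata6, a transcription factor gene, rose by 1.79 ± 0.57 while Sox7, another, fell by 1.42 ± 0.44 (adjusted p = 0.0274 and 0.0248, and 0.0811 and 0.11 without the replicate block). Their summed signal was 294 to 437 units without Tc and 293 to 541 with Tc in the Ncl-1 line, and 225 to 356 and 280.0 to 441 in the Ncl-2 line. Gsc, 1 of 2 tested among 7 mesoderm markers, rose by 1.18 ± 0.28 and 1.32 ± 0.28 (adjusted p = 0.00496 and 0.00213, and 0.0237 and 0.0121 without the block). The summed signal of these 2 mesoderm markers was low. It was 83.22 to 90.95 units without Tc and 132.4 to 157.2 with Tc in the Ncl-1 line. In the Ncl-2 line it was 60.98 to 101.1 and 98.34 to 222. A probe could pass the detection filter through 1 group alone, so the size of the Gsc rise is uncertain. Nes, 1 of 2 tested among 7 neuroectoderm markers, rose by 0.99 ± 0.33 in the Ncl-1 line (adjusted p = 0.0362, and 0.211 without the block) and had 0.73 ± 0.33 in the Ncl-2 line. Among the stem cell markers Tcl1, a cofactor of the kinase AKT, fell by 1.46 ± 0.22 and 1.36 ± 0.22 (adjusted p = 0.000155 and 0.000279, and 0.108 and 0.136 without the block).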
